A study of Homo sapiens with 12 samples.

Results

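The genes described here encode ligands of the activin, inhibin and TGF-beta branch of signalling, 2 TGF-beta receptors and 2 extracellular proteins that hold ligands back. They were chosen by symbol, INHBA, INHBB, INHBE, FST, TGFB1, TGFB2, TGFB3, TGFBR1, TGFBR2 and LTBP1, with no measured value in the rule. All 10 were found among 35940 symbols, each under 1 Ensembl identifier. RNA came from ESI017 SOX2::mCitrine, a human embryonic stem cell line whose SOX2 gene is reported by a fluorescent protein, grown for 3 days as micropatterned colonies in the serum-free medium N2B27. SOX2-negative and SOX2-positive cells were sorted out of colonies given FGF8 (200 ng/ml) plus WNT3A at 100, 300 or 1000 ng/ml, with 2 libraries per gate at 100 and 1000 ng/ml and 1 library per gate at 300 ng/ml. The control was colonies in N2B27 with neither factor, with 2 libraries and no gate in its labels. Every group is the same reporter line, every treated group received FGF8 at the same dose, and no library had FGF8 without WNT3A, so the effects of the pair cannot be told apart. The sort and the treatment cannot be told apart either where a gate is set against control.

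TGF-beta and activin ligands bind a type II receptor, which activates a type I receptor, which phosphorylates the transcription factors SMAD2 and SMAD3. TGF-beta leaves the cell in a latent complex, tied by latent TGF-beta binding proteins to the extracellular matrix, and must be released to act, whereas activins are secreted active and are neutralised by follistatin. In human pluripotent cells activin and Nodal signalling through SMAD2 and SMAD3 maintains pluripotency, and stronger signalling together with WNT directs cells to endoderm and mesoderm. The title of the series asks how endogenous Nodal changes what cells do in response to WNT, and the genes here share the SMAD2 and SMAD3 branch with Nodal.

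Promoter sequence is shown for TGFB1, TGFB2 and FST, the 3 genes with the largest fold changes among those called in SOX2-negative cells at 100 ng/ml against control. The sequences come from RefSeq on GRCh38.p14, which had a window for 9 of the 10 genes, and cover up to 250 bases before the start. The TGFB1 window is chr19:41353923-41354172 on the minus strand and the TGFB2 window is chr1:218345086-218345335 on the plus strand. Of FST, 30 bases at chr5:53480458-53480487 on the plus strand are given, which lie inside the FST gene as GENCODE 29 annotates it (its start there is 53480409). Capitals mark GC boxes (GGGCGG, either strand) in TGFB1, a SMAD-type CAGACA in TGFB2 and an AP-1-type TGANTCA in FST.
TGFB1: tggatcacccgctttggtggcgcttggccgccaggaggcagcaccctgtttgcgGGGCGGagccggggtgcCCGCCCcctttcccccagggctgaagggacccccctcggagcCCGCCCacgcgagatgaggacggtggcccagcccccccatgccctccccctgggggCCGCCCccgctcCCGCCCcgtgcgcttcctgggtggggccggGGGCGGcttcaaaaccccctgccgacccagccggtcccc
TGFB2: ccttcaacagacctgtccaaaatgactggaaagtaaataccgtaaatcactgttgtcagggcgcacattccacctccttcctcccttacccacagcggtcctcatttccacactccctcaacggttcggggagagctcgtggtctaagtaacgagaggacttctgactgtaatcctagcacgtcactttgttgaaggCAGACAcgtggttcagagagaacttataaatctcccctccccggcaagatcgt
FST: gaaatgtcaccTGATTCAcactgaactttt
Of 35116 promoter windows of 250 bases, 42.6% held a GC box, 13.6% held CAGACA and 6.57% held TGANTCA on either strand. The TGFB1 window held 6 GC boxes, at 196, 179, 137, 81, 69 and 39 bases before the start, the CAGACA of TGFB2 lay 53 bases before its start, and the TGANTCA of FST 160 bases before its start. GC boxes were not particular to TGFB1, with 2 in FST, 10 in INHBB, 10 over 4 windows of TGFBR1 and 2 in TGFBR2. Nor was CAGACA particular to TGFB2, with 2 matches each in TGFBR1 and LTBP1. A TCF/LEF-type CTTTGAT, present in 2.26% of windows, and a C/EBP-ATF-type TGATGNAA, present in 3.14%, were in no window of these 9 genes. Such matches describe letters and no binding was measured.

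Levels are CPM, estimated counts divided by the library total after edgeR's TMM scaling, and a gene is called where edgeR's quasi-likelihood test gave a Benjamini-Hochberg adjusted p under 0.05 over the 17047 symbols tested. Library totals ran between 16474856 and 28079048 estimated counts. All 10 genes passed the filter on low counts, INHBA through 1 library (WNT3A 100 SOX2-positive replicate 1) and INHBB through 2. SOX2 itself checked the gates, at 1.85 to 5.98 CPM in SOX2-negative, 418 to 467 CPM in SOX2-positive and 652 to 676 CPM in control libraries. The summed CPM of 4 pluripotency markers was 391 to 831 in SOX2-negative, 1912 to 2855 in SOX2-positive and 879 to 1013 in control libraries. All 4 were called lower in SOX2-negative than in SOX2-positive cells. Against control, 2 of the 4 were called lower in SOX2-negative cells at each dose. Of all symbols 8.66% were lower at 100 ng/ml and 7.10% at 1000 ng/ml. POU5F1 and NANOG levels of SOX2-negative and control libraries overlapped. PRDM14 was at 58.0 to 84.5 CPM in SOX2-positive libraries, against 108 and 86.5 CPM in control. On the first principal component (46.3% of variance) the SOX2-negative libraries lay at 72.6 to 88.2 and the others at -68.3 to -44.3. On the second (16.3%), WNT3A 100 SOX2-negative replicate 2 stood apart at 48.0, with the other SOX2-negative libraries at -12.9 to 0.3, and values without it are given where they change a call. In bulk libraries, fewer cells of a type and less RNA per cell cannot be told apart.

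Between the gates, averaged over 100 and 1000 ng/ml, 5 of the 10 genes were called. TGFB1, TGFBR1 and LTBP1 were higher in SOX2-negative cells, and FST and INHBE were lower. Over all symbols 24.0% were called, 12.9% higher and 11.1% lower. INHBA and INHBB, not called, passed the filter through SOX2-positive libraries alone, so the sign of their difference between the gates is not independent of the filter. Against control, SOX2-negative cells had 4 calls at 100 ng/ml (TGFB1 higher, FST, TGFB2 and TGFBR2 lower), where 20.6% of all symbols were called, 11.9% higher and 8.66% lower. At 1000 ng/ml they had 2 (TGFB1 higher, FST lower), where 17.8% of all symbols were called, 10.7% higher and 7.10% lower. SOX2-positive cells had 1 call against control at each dose, FST lower, with 4.22% of all symbols called at 100 ng/ml (2.69% higher, 1.53% lower) and 5.60% at 1000 ng/ml (3.63% higher, 1.97% lower). The 4 comparisons with control share its 2 libraries.

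**Figure D1:**
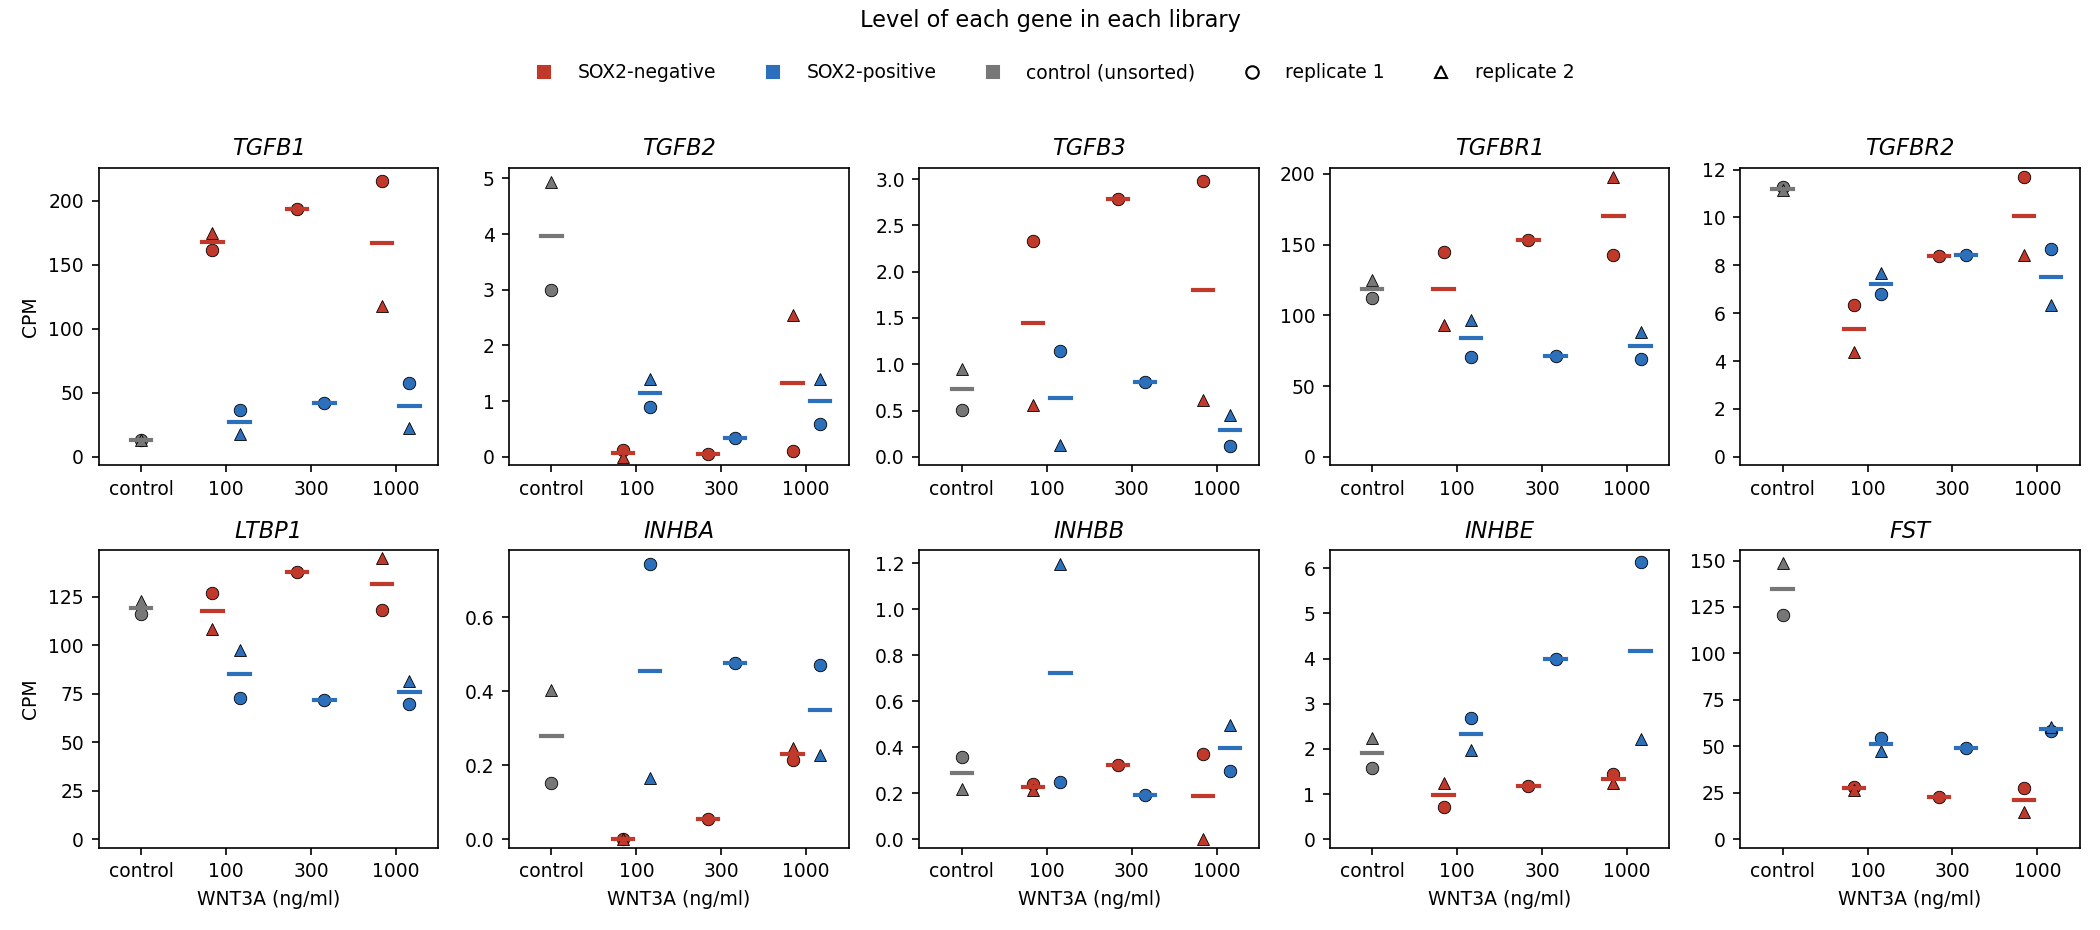
CPM of each of the 10 genes (y axis, scale differs by panel) against WNT3A dose in ng/ml (x axis), with SOX2-negative left of SOX2-positive at each dose. Circles and triangles are replicates 1 and 2 and bars are group means. TGFB1 lies at 118 to 215 CPM in all 5 SOX2-negative libraries, above every other library, and FST is highest in the 2 controls.

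TGFB1, the most widely expressed TGF-beta ligand (ENSG00000105329, chromosome 19, 41301587 to 41353911 on GRCh38, minus strand), showed the clearest contrast. At 100 ng/ml it was at 161 and 174.5 CPM in SOX2-negative libraries, against 36.8 and 17.6 CPM in SOX2-positive ones. At the highest dose TGFB1 was at 215 and 118 CPM in SOX2-negative libraries, against 57.5 and 22.3 CPM in SOX2-positive ones. At 300 ng/ml the single libraries had 193.5 CPM in SOX2-negative and 42.2 CPM in SOX2-positive cells, and the controls had 12.8 and 13.0 CPM. No SOX2-negative library overlapped a SOX2-positive one, and every treated library exceeded both controls. SOX2-negative cells averaged 167 ± 40.1 CPM, against 33.6 ± 17.9 CPM in SOX2-positive cells (SD, n = 4 each), a log2 fold change of 2.35 ± 0.33 (SE, adjusted p = 0.00049, edgeR). In all 5 dose-matched pairs of gates from the same repeat TGFB1 was higher in SOX2-negative cells, by 3.75- to 9.89-fold.

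Against control, TGFB1 in SOX2-negative cells was higher by 3.70 ± 0.50 on the log2 scale at 100 ng/ml (adjusted p = 0.00058, edgeR) and by 3.69 ± 0.50 at 1000 ng/ml (adjusted p = 0.00055, edgeR). Within each biological repeat the fold over that repeat's control was 12.6 and 13.5 at 100 ng/ml and 16.8 and 9.11 at 1000 ng/ml. In SOX2-positive cells TGFB1 was 2.88 and 1.36 times its repeat's control at 100 ng/ml and 4.49 and 1.72 times at 1000 ng/ml. Neither passed the test, with log2 fold changes of 1.08 ± 0.46 at the lower dose (adjusted p = 0.27) and, at the higher, 1.63 ± 0.47 (adjusted p = 0.076, edgeR). The 1000 ng/ml difference passed with the repeat as a block (log2 fold change 1.48, adjusted p = 0.043), with DESeq2 (adjusted p = 0.0044), when only the compared groups were fitted (0.028), with no filter on low counts (1.9e-07) and without WNT3A 1000 SOX2-positive replicate 2 (0.028). The 100 ng/ml difference passed when only the compared groups were fitted (0.028) and with no filter (0.0019). With no filter the log2 fold changes were 1.07 at 100 ng/ml and 1.62 at 1000 ng/ml. The fitted differences thus hardly moved, and the lower adjusted p there is no larger difference.

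TGFB1 shares 215 exonic bases with HNRNPUL1 on the opposite strand, and whether reads were assigned by strand is not given in the sources used here. HNRNPUL1 lay at 254 to 401 CPM in SOX2-negative, 369 to 448 CPM in SOX2-positive and 443 to 477 CPM in control libraries. It was not called between the gates (log2 fold change -0.31 ± 0.16, adjusted p = 0.18, edgeR). How reads in the shared bases were assigned was not tested. Platelets carry much TGFB1, and the 4 platelet and blood markers summed to 0 to 0.359 CPM in SOX2-negative, 0.0496 to 0.783 CPM in SOX2-positive and 0 CPM in control libraries, with PPBP and HBG1 at 0 throughout. Between the gates the sums of 3 other marker lists, endoderm, lateral and cardiac mesoderm and mesenchymal, did not overlap and were higher in SOX2-negative cells. The 5 endoderm markers summed to 648 to 1255 CPM in SOX2-negative, 7.30 to 26.9 CPM in SOX2-positive and 3.91 to 7.72 CPM in control libraries, with SOX17 at 0 in control. The 5 lateral and cardiac mesoderm markers summed to 259 to 643 CPM in SOX2-negative, 5.06 to 22.9 CPM in SOX2-positive and 64.0 to 76.4 CPM in control libraries. BMP4 carried the control sum, at 62.1 and 53.0 CPM, against 11.6 and 21.2 CPM in SOX2-negative libraries at 100 ng/ml. Against control at that dose, 3 of the 5 were called higher and 1 lower, beside 11.9% and 8.66% of all symbols. The 4 mesenchymal markers summed to 790 to 1403 CPM in SOX2-negative, 220.0 to 305 CPM in SOX2-positive and 253.5 to 409 CPM in control libraries. Of the 4, 3 were called higher between the gates. CDH2 was at 613 to 899 CPM in SOX2-negative libraries, against 70.3 to 93.9 CPM in SOX2-positive ones. VIM overlapped, with 136 and 169 CPM at 100 ng/ml in SOX2-negative libraries, against 158 and 203 CPM in SOX2-positive ones. The 4 presomitic mesoderm markers summed to 22.0 to 80.7 CPM in SOX2-negative, 5.90 to 30.2 CPM in SOX2-positive and 4.47 to 4.50 CPM in control libraries, with MSGN1 at 0 in SOX2-positive and control libraries, so the gates overlapped. The part of these cell types, platelets among them, in the gate contrasts of TGFB1, TGFBR1, LTBP1, INHBE and FST was not tested.

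The other TGF-beta ligands were scarce. TGFB2 (ENSG00000092969, chromosome 1, 218346235 to 218444619), a ligand with roles in heart and craniofacial development in the mouse, was at 0.120 and 0 CPM in SOX2-negative libraries at 100 ng/ml, against 0.892 and 1.40 CPM in SOX2-positive ones. TGFB2 at 1000 ng/ml was at 0.106 and 2.56 CPM in SOX2-negative libraries, against 0.589 and 1.40 CPM in SOX2-positive ones, and the controls had 3.00 and 4.94 CPM. The 300 ng/ml libraries had 0.0536 CPM in SOX2-negative and 0.333 CPM in SOX2-positive cells. All treated libraries lay below both controls, and 1 SOX2-negative library, WNT3A 1000 replicate 2, stood far above the other 4.

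The SOX2-negative libraries at 100 ng/ml held 2 TGFB2 counts together, against 194 in the controls, a ratio of 0.0121 (exact 95% interval 0.00145 to 0.0442, counting error only). TGFB2 was called lower there (adjusted p = 0.018, edgeR), and the call was lost without control replicate 2 (0.079) or WNT3A 100 SOX2-negative replicate 2 (0.09). Between the gates it was not called (log2 fold change -1.94 ± 0.95, adjusted p = 0.17, edgeR). Without WNT3A 1000 SOX2-negative replicate 2 the difference was -3.75 with an adjusted p of 0.02, and with no filter on low counts the adjusted p was 0.022. In that library the receptor gene KDR, of the endothelial list, was at 271 CPM, against 20.1 to 82.8 CPM in the other SOX2-negative libraries, and VIM, of the mesenchymal list, was at 628 CPM, against 136 to 376 CPM. SNAI2, also of that list, was at 34.9 CPM, against 3.85 to 19.3 CPM. Of the lateral and cardiac mesoderm list, HAND1 was at 177 CPM, against 12.6 to 58.8 CPM, and BMP4 at 81.1 CPM, against 11.6 to 41.4 CPM. ISL1 was at 36.1 CPM, against 17.9 to 30.1 CPM, and TBX3 and GATA4 lay within the range of the other SOX2-negative libraries. Of the mesenchymal list, TWIST1 was at 10.96 CPM, against 3.41 to 8.46 CPM, and CDH2 lay within the range. The endoderm markers SOX17, FOXA2 and CXCR4 were lowest there, with SOX17 at 340.2 CPM, against 493 to 827 CPM. The pluripotency markers POU5F1, NANOG and PRDM14 were also lowest, with POU5F1 at 216.6 CPM, against 379.9 to 715.9 CPM. GATA6, CER1 and DPPA4 lay within the range. The other 3 endothelial markers did not stand out there, with PECAM1 at 5.81 CPM, CDH5 at 3.54 CPM and TEK at 16.2 CPM, against 4.89 to 5.98, 2.69 to 3.70 and 4.19 to 17.1 CPM in the other SOX2-negative libraries. The summed endothelial list was 35.5 to 297 CPM in SOX2-negative, 112 to 213 CPM in SOX2-positive and 47.2 to 66.2 CPM in control libraries, carried by KDR in both gates and by TEK in control. Of these 4 markers 2 were called higher and 1 lower in SOX2-negative cells. PECAM1 and CDH5 were the higher ones, at 5.65 ± 0.511 and 3.14 ± 0.424 CPM, against 0.371 ± 0.250 and 0.375 ± 0.277 CPM in SOX2-positive cells (SD, n = 4 each). KDR ran the other way at 100 ng/ml, at 20.1 and 22.5 CPM in SOX2-negative libraries, against 108 and 96.1 CPM in SOX2-positive ones. So did TEK, at 9.93 and 4.19 CPM against 20.6 and 15.2 CPM. Both overlapped between the gates at 1000 ng/ml. The part of these marker genes in the TGFB2 level of WNT3A 1000 SOX2-negative replicate 2 was not tested. TGFB2 shares 1371 exonic bases with the noncoding TGFB2-OT1 on its own strand, so reads there may belong to either.

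TGFB3 (ENSG00000119699, chromosome 14, 75958099 to 75982991), known for palate closure in the mouse, had 2.33 and 0.555 CPM in SOX2-negative libraries at 100 ng/ml, against 1.14 and 0.124 CPM in SOX2-positive ones. TGFB3 at 1000 ng/ml had 2.98 and 0.618 CPM in SOX2-negative libraries, against 0.118 and 0.452 CPM in SOX2-positive ones, and 0.508 and 0.952 CPM in control. The single 300 ng/ml libraries had 2.78 CPM in SOX2-negative and 0.808 CPM in SOX2-positive cells. Levels in the gates overlapped when pooled, but in each of the 5 dose-matched pairs TGFB3 was higher in SOX2-negative cells, by 1.37- to 25.3-fold. In SOX2-negative cells the 3 libraries of the first repeat (2.33 to 2.98 CPM) lay above both of the second. TGFB3 was not called between the gates (log2 fold change 1.89 ± 0.85, adjusted p = 0.14, edgeR), and passed with no filter on low counts (0.02). It shares 163 exonic bases with TGFB3-AS1 on the opposite strand.

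Per kilobase of the longest coding transcript, TGFB1 was 98.3 to 99.7% of the summed level of the 3 TGF-beta ligands in SOX2-negative, 94.6 to 99.2% in SOX2-positive and 77.5 to 85.3% in control libraries. The summed level was 43.4 to 79.0 CPM per kb in SOX2-negative, 6.70 to 20.9 CPM per kb in SOX2-positive and 5.42 to 6.04 CPM per kb in control libraries. TGFB2 made 10.95 and 16.2% of the sum in the controls and at most 4.14% in any treated library. Shares of a sum move with TGFB1, so a lower share is no separate loss of TGFB2.

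**Figure D2:**
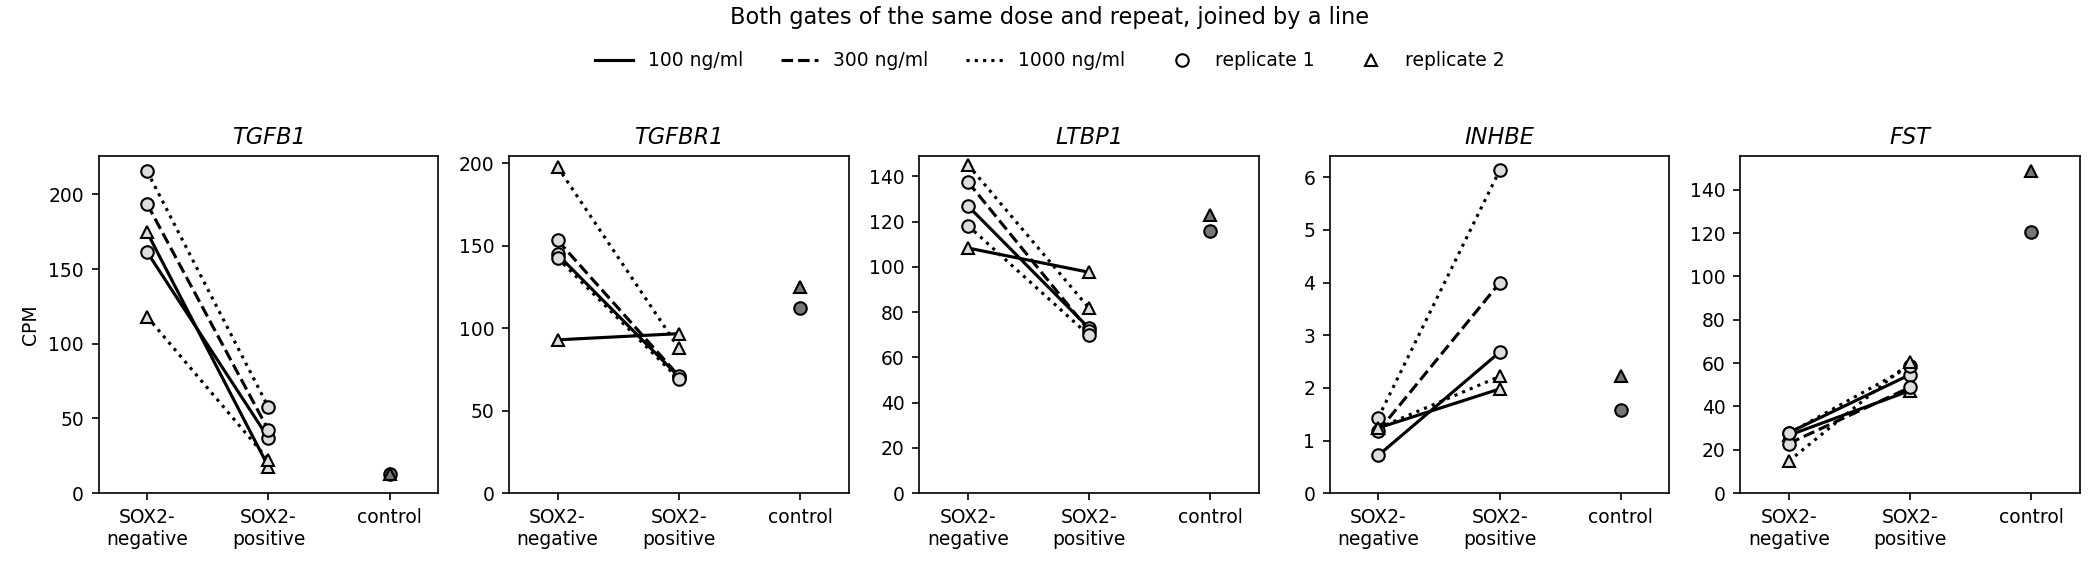
CPM (y axis, from 0) of the 5 genes called between the gates, with each line joining the SOX2-negative and SOX2-positive library of the same dose and repeat, and the 2 controls at the right. TGFB1 and LTBP1 are higher at the SOX2-negative end of all 5 lines and FST and INHBE lower, while TGFBR1 has 1 line (100 ng/ml, replicate 2) running the other way at a ratio of 0.961.

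Of the receptors, TGFBR1 (ENSG00000106799, chromosome 9, 99104038 to 99154192), the type I kinase also called ALK5, differed between the gates and TGFBR2, the type II receptor, did not pass. TGFBR1 was at 145 and 92.9 CPM in SOX2-negative libraries at 100 ng/ml, against 70.6 and 96.6 CPM in SOX2-positive ones. TGFBR1 at 1000 ng/ml was at 142.5 and 198 CPM in SOX2-negative libraries, against 69.1 and 87.9 CPM in SOX2-positive ones, with 112 and 125 CPM in control. The single 300 ng/ml libraries had 153 CPM in SOX2-negative and 71.0 CPM in SOX2-positive cells. The gates overlapped through 1 pair, at 100 ng/ml in the second repeat. SOX2-negative cells averaged 144 ± 42.8 CPM, against 81.0 ± 13.5 CPM in SOX2-positive cells (SD, n = 4 each), a log2 fold change of 0.81 ± 0.20 (adjusted p = 0.012, edgeR).

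The TGFBR1 call was lost without WNT3A 100 SOX2-positive replicate 1 (adjusted p = 0.061), WNT3A 1000 SOX2-negative replicate 2 (0.052) or WNT3A 1000 SOX2-positive replicate 1 (0.062). Neither gate differed from control by the test, with log2 fold changes between -0.59 and 0.52 (adjusted p = 0.24 to 1 over both gates and doses, edgeR). At 1000 ng/ml the control level lay between those of the gates.

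TGFBR2 (ENSG00000163513, chromosome 3, 30606502 to 30694142) was at 6.34 and 4.36 CPM in SOX2-negative libraries at 100 ng/ml, against 6.79 and 7.67 CPM in SOX2-positive ones. TGFBR2 at 1000 ng/ml was at 11.7 and 8.45 CPM in SOX2-negative libraries, against 8.67 and 6.33 CPM in SOX2-positive ones, and control had 11.3 and 11.1 CPM. At 300 ng/ml both gates had 8.41 CPM. The gates overlapped, with a log2 fold change of -0.01 ± 0.22 (adjusted p = 0.99, edgeR). In SOX2-negative cells at 100 ng/ml it was 0.562 and 0.392 times its repeat's control (log2 fold change -1.07 ± 0.32, adjusted p = 0.037, edgeR).

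That TGFBR2 call was lost in a fit of the compared groups alone (adjusted p = 0.1). With identifiers kept apart it fell at the edge of the threshold and was lost (0.05 after rounding). It was also lost without either WNT3A 100 SOX2-positive library (0.06), control replicate 1 (0.15), control replicate 2 (0.14) or WNT3A 100 SOX2-negative replicate 2 (0.15). Per kilobase, TGFBR1 exceeded TGFBR2 8.64- to 16.6-fold in SOX2-negative, 5.65- to 9.84-fold in SOX2-positive and 7.06- to 7.96-fold in control libraries. The ratio overlapped between the gates.

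LTBP1 (ENSG00000049323, chromosome 2, 32946972 to 33399509), which anchors latent TGF-beta in the matrix, was at 127 and 108 CPM in SOX2-negative libraries at 100 ng/ml, against 72.8 and 97.6 CPM in SOX2-positive ones. LTBP1 at 1000 ng/ml was at 118 and 145 CPM in SOX2-negative libraries, against 69.7 and 81.7 CPM in SOX2-positive ones, and the controls had 116 and 123 CPM. At 300 ng/ml it was at 137.5 CPM in SOX2-negative and 71.7 CPM in SOX2-positive cells. The gates did not overlap, and both controls lay within the SOX2-negative range. The log2 fold change between the gates was 0.63 ± 0.16 (adjusted p = 0.013, edgeR), with all 5 pairs higher in SOX2-negative cells by 1.11- to 1.92-fold.

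The LTBP1 call was lost without WNT3A 100 SOX2-positive replicate 1 (adjusted p = 0.072), WNT3A 1000 SOX2-negative replicate 2 (0.053) or WNT3A 1000 SOX2-positive replicate 1 (0.07), the same libraries as for TGFBR1. Against control, the log2 difference was -0.02 ± 0.22 and 0.14 ± 0.22 in SOX2-negative cells at 100 and 1000 ng/ml (adjusted p = 0.96 and 0.71, edgeR). Among SOX2-positive libraries the difference was -0.49 ± 0.22 at the lower dose and -0.66 ± 0.22 at the higher (adjusted p = 0.3 and 0.13, edgeR). That at 1000 ng/ml passed with DESeq2 (adjusted p = 0.049) and in a fit of the compared groups alone (0.02). Without either WNT3A 100 SOX2-negative library the log2 difference there was -0.66. LTBP1 shares 249 exonic bases with the antisense gene AC019127.1.

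The activin and inhibin beta chains were near the limit of detection. INHBA (ENSG00000122641, chromosome 7, 41667168 to 41705834), whose dimer is activin A, had no count in either SOX2-negative library at 100 ng/ml, against 15 and 4 counts in the SOX2-positive ones. INHBA at 1000 ng/ml had 4 and 6 counts in SOX2-negative libraries, against 8 and 5 in SOX2-positive ones, and 3 and 11 in control. The 300 ng/ml libraries had 1 count in SOX2-negative and 10 in SOX2-positive cells. Against a floor of 3 counts over the group (0.0748 CPM), SOX2-negative cells at 100 ng/ml were at least 3.98-fold lower than control, where 1 library held 11 of 14 counts, and the difference did not pass (adjusted p = 0.087, edgeR). Between the gates it did not pass either (adjusted p = 0.074, edgeR). The SOX2-positive library with 15 counts is the one through which INHBA passed the filter, so the gate comparison is not independent of that choice.

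INHBB (ENSG00000163083, chromosome 2, 120346143 to 120351808), whose dimer is activin B, had 4 and 5 counts in SOX2-negative libraries at 100 ng/ml, against 5 and 29 in SOX2-positive ones. INHBB at 1000 ng/ml had 7 and 0 counts in SOX2-negative libraries, against 5 and 11 in SOX2-positive ones, and 7 and 6 in control. At 300 ng/ml it had 6 counts in SOX2-negative and 4 in SOX2-positive cells. The gates overlapped, and no difference was detectable at this depth (log2 fold change -1.40 ± 1.00, adjusted p = 0.35, edgeR). WNT3A 100 SOX2-positive replicate 2, with 29 of the 50 counts of the 4 SOX2-positive libraries at these doses, was high.

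INHBE (ENSG00000139269, chromosome 12, 57452323 to 57459280), best known as a liver-secreted chain and as a gene induced by the integrated stress response, was at 0.718 and 1.24 CPM in SOX2-negative libraries at 100 ng/ml, against 2.68 and 1.98 CPM in SOX2-positive ones. INHBE at 1000 ng/ml was at 1.44 and 1.24 CPM in SOX2-negative libraries, against 6.13 and 2.22 CPM in SOX2-positive ones, and control had 1.58 and 2.23 CPM. Its 300 ng/ml libraries had 1.18 CPM in SOX2-negative and 3.99 CPM in SOX2-positive cells. The gates did not overlap, and the highest library was WNT3A 1000 SOX2-positive replicate 1. The log2 fold change between the gates was -1.43 ± 0.43 (adjusted p = 0.032, edgeR), with all 5 pairs lower in SOX2-negative cells at 0.234 to 0.626 of the SOX2-positive level.

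This was the least stable of the 5 gate calls. It was lost without WNT3A 100 SOX2-negative replicate 1 (adjusted p = 0.051), WNT3A 100 SOX2-positive replicate 1 (0.096) or replicate 2 (0.062), WNT3A 1000 SOX2-negative replicate 1 (0.074) or replicate 2 (0.083) or WNT3A 1000 SOX2-positive replicate 1 (0.16), and in a fit of the compared groups alone (0.051). No comparison with control was called (adjusted p = 0.29 to 0.87, edgeR). Of 12 integrated stress response genes, 0 were higher and 3 lower between the gates, namely VLDLR, DDIT4 and ASNS, with 12.9% of all symbols higher and 11.1% lower. The list's median log2 fold change was 0.0039 beside 0.0068 over all symbols. Not called were the factors ATF4, at 391.9 ± 71.2 CPM in SOX2-negative and 273 ± 64.0 CPM in SOX2-positive cells (log2 fold change 0.53 ± 0.20, adjusted p = 0.076, edgeR), and DDIT3, at 3.66 ± 1.21 and 1.62 ± 0.585 CPM (1.18 ± 0.42, adjusted p = 0.064, edgeR), both named after their values were seen. The amino acid enzyme ASNS averaged 51.4 ± 15.7 CPM in SOX2-negative and 105 ± 15.6 CPM in SOX2-positive cells (log2 fold change -1.07 ± 0.16). VLDLR, a lipoprotein receptor, averaged 14.5 ± 4.77 and 67.2 ± 19.2 CPM (log2 fold change -2.19 ± 0.23). DDIT4, an inhibitor of mTOR signalling, averaged 78.2 ± 60.1 and 208 ± 92.2 CPM (log2 fold change -1.49 ± 0.46).

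FST (ENSG00000134363, chromosome 5, 53480409 to 53487134), which encodes follistatin, ran opposite to TGFB1 in its order of groups. At 100 ng/ml it was at 27.9 and 26.7 CPM in SOX2-negative libraries, against 54.7 and 47.3 CPM in SOX2-positive ones. FST at 1000 ng/ml was at 27.6 and 14.8 CPM in SOX2-negative libraries, against 58.5 and 60.3 CPM in SOX2-positive ones. The single 300 ng/ml libraries had 22.9 CPM in SOX2-negative and 48.8 CPM in SOX2-positive cells, and the controls had 120.5 and 149 CPM. SOX2-negative, SOX2-positive and control levels did not overlap. SOX2-negative cells averaged 24.2 ± 6.34 CPM, against 55.2 ± 5.75 CPM in SOX2-positive cells (SD, n = 4 each), a log2 fold change of -1.20 ± 0.20 (adjusted p = 0.0013, edgeR). All 5 pairs were lower in SOX2-negative cells, at 0.245 to 0.563 of the SOX2-positive level.

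Against control, FST fell by 2.30 ± 0.29 on the log2 scale in SOX2-negative cells at 100 ng/ml (adjusted p = 0.00036, edgeR) and by 2.67 ± 0.29 at 1000 ng/ml (adjusted p = 0.00014, edgeR). In SOX2-positive cells it fell by 1.40 ± 0.28 at 100 ng/ml (adjusted p = 0.018, edgeR) and by 1.18 ± 0.28 at 1000 ng/ml (adjusted p = 0.033, edgeR). Within each repeat, SOX2-negative cells held 0.231 and 0.179 of the control level at 100 ng/ml and 0.229 and 0.0991 at 1000 ng/ml. SOX2-positive cells held 0.454 and 0.318 at 100 ng/ml and 0.485 and 0.405 at 1000 ng/ml. The SOX2-positive calls rested on few libraries. The call at 100 ng/ml was lost on leaving out any 1 of the control or WNT3A 100 SOX2-positive libraries (adjusted p = 0.071 to 0.18), and that at 1000 ng/ml on leaving out any 1 of the control or SOX2-positive libraries of either dose (0.059 to 0.27). Of 3 neural markers, OTX2, which is not specific to neural cells, was at 24.3 to 93.7 CPM in SOX2-negative, 44.7 to 101 CPM in SOX2-positive and 346 to 355 CPM in control libraries, so its gates overlapped. PAX6 averaged 0.115 ± 0.0875 CPM in SOX2-negative, 2.11 ± 2.13 CPM in SOX2-positive (n = 4 each) and 16.1 ± 12.2 CPM in control libraries (SD, n = 2), and SOX1 was at 0 in SOX2-negative and control libraries. Their part in the FST contrast was not tested.

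**Figure D3:**
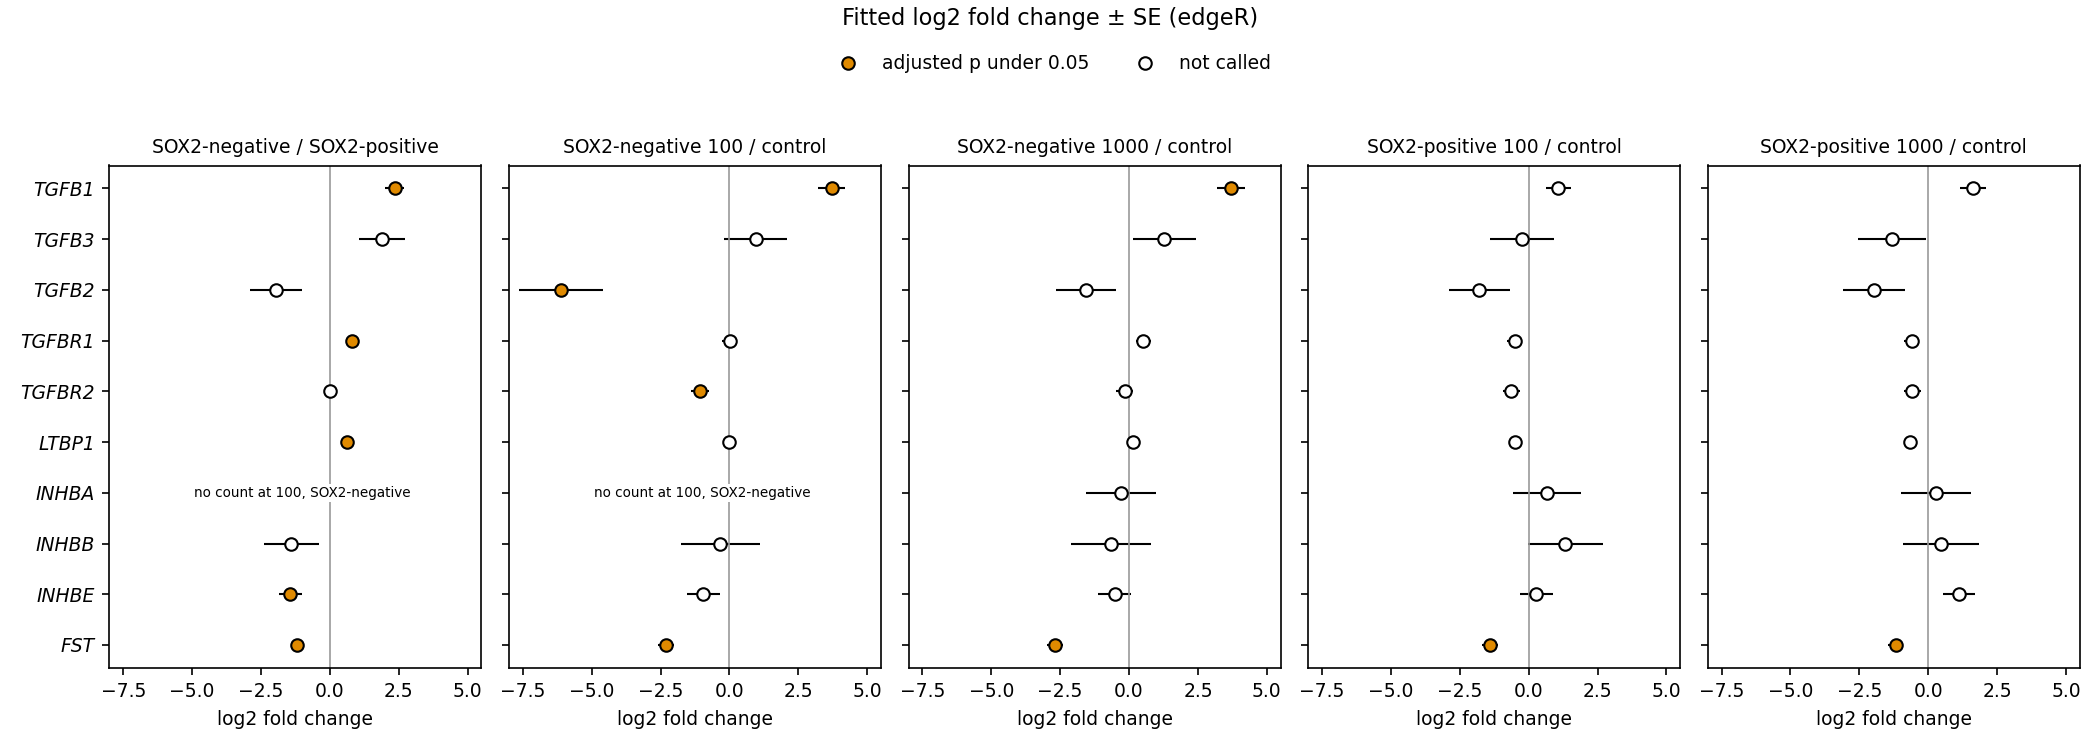
Fitted log2 fold change with its SE (x axis) of the 10 genes (rows) in 5 comparisons, filled where called. TGFB1 and FST are filled on opposite sides of 0 in the 3 panels with SOX2-negative cells; FST alone is filled in the 2 panels of SOX2-positive cells against control. INHBA is left out where SOX2-negative cells at 100 ng/ml had no count.

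Between 1000 and 100 ng/ml, 0 of the 10 genes were called in either gate, and 0 were called for the difference of dose effects between gates. Over all symbols edgeR called 0% in each of these 3 comparisons. In SOX2-negative cells 3 genes had an unadjusted p under 0.05, INHBA, TGFB2 and TGFBR2, in SOX2-positive cells 0 did, and for the difference of dose effects 2 did, INHBA and TGFB2. Over all symbols the same threshold was met by 18.2% in SOX2-negative cells, 1.72% in SOX2-positive cells and 7.91% for the difference. DESeq2 called 0 of the 10 in each. TGFB1 differed between the doses by -0.01 ± 0.45 on the log2 scale in SOX2-negative cells (unadjusted p = 0.98) and by 0.55 ± 0.45 in SOX2-positive cells (0.25, edgeR). FST differed by -0.37 ± 0.28 in SOX2-negative cells (unadjusted p = 0.21) and by 0.22 ± 0.27 in SOX2-positive cells (0.44). TGFBR2 was higher at 1000 than at 100 ng/ml in SOX2-negative cells by 0.92 ± 0.32 (unadjusted p = 0.015, adjusted p = 0.25, edgeR), with 11.7 and 8.45 CPM at 1000 ng/ml against 6.34 and 4.36 CPM at 100 ng/ml. Without WNT3A 100 SOX2-negative replicate 1, TGFBR2 (log2 fold change 1.22, adjusted p = 0.026), TGFBR1 (0.89, 0.031) and TGFB2 (adjusted p = 0.044) passed in SOX2-negative cells, along with 5739 of all symbols. That leaves 1 library at 100 ng/ml, the one that stood apart on the second component, which is assumed to vary like the other groups. With no filter on low counts TGFB2 passed there (adjusted p = 0.0017) and for the difference of dose effects (0.041). With 2 libraries a group the errors are wide, and these values do not show that the doses acted alike.

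Ordered by level per kilobase, SOX2-negative cells at 100 and 1000 ng/ml had TGFB1 first at 60.4 ± 14.5 CPM per kb, then TGFBR1 at 22.2 ± 6.57 and LTBP1 at 19.7 ± 2.47, which did not differ beyond their spread, then FST at 9.55 ± 2.50 (SD, n = 4). SOX2-positive cells had FST first at 21.8 ± 2.26 CPM per kb, then LTBP1 at 12.7 ± 1.98, TGFBR1 at 12.4 ± 2.07 and TGFB1 at 12.1 ± 6.47, which did not differ beyond their spread. Controls had FST first at 53.1 ± 7.89 CPM per kb, then LTBP1 at 18.8 ± 0.780 and TGFBR1 at 18.2 ± 1.36, within their spread, and TGFB1 at 4.65 ± 0.0395 (SD, n = 2). TGFBR2 followed at 1.67 ± 0.679 in SOX2-negative, 1.59 ± 0.223 in SOX2-positive and 2.43 ± 0.0231 CPM per kb in control libraries, and the remaining 5 genes averaged at most 1.34 CPM per kb in any of these groups.

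The genes with profiles nearest to each gene were ranked by the root mean square difference of centred log2 CPM over the 12 libraries, which share the same gates and depth. Nearest to TGFB1 were EPHA2, an ephrin receptor (difference 0.33), S100A10 (0.34) and LRP10 (0.34). EPHA2 averaged 240.4 CPM in SOX2-negative, 37.2 CPM in SOX2-positive and 12.9 CPM in control libraries. Nearest to FST were DRAXIN, an axon guidance inhibitor (0.20), TGIF2, a repressor of SMAD targets (0.22), and OLFML2B (0.22). DRAXIN averaged 25.1 CPM in SOX2-negative, 61.5 CPM in SOX2-positive and 162 CPM in control libraries. FUT8, BMI1 and GNAI1 were nearest to TGFBR1, NHSL1, HSPA14 and IKZF5 to TGFBR2, and HSF2, ACTR10 and ASH2L to LTBP1, all at 0.11 to 0.18. SOX4, THY1 and IRF2BPL were nearest to INHBE at 0.29 to 0.34. For TGFB2, TGFB3, INHBA and INHBB the nearest gene lay at 0.81, 0.62, 0.46 and 0.42, and their low counts make such ranks uncertain.

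**Figure D4:**
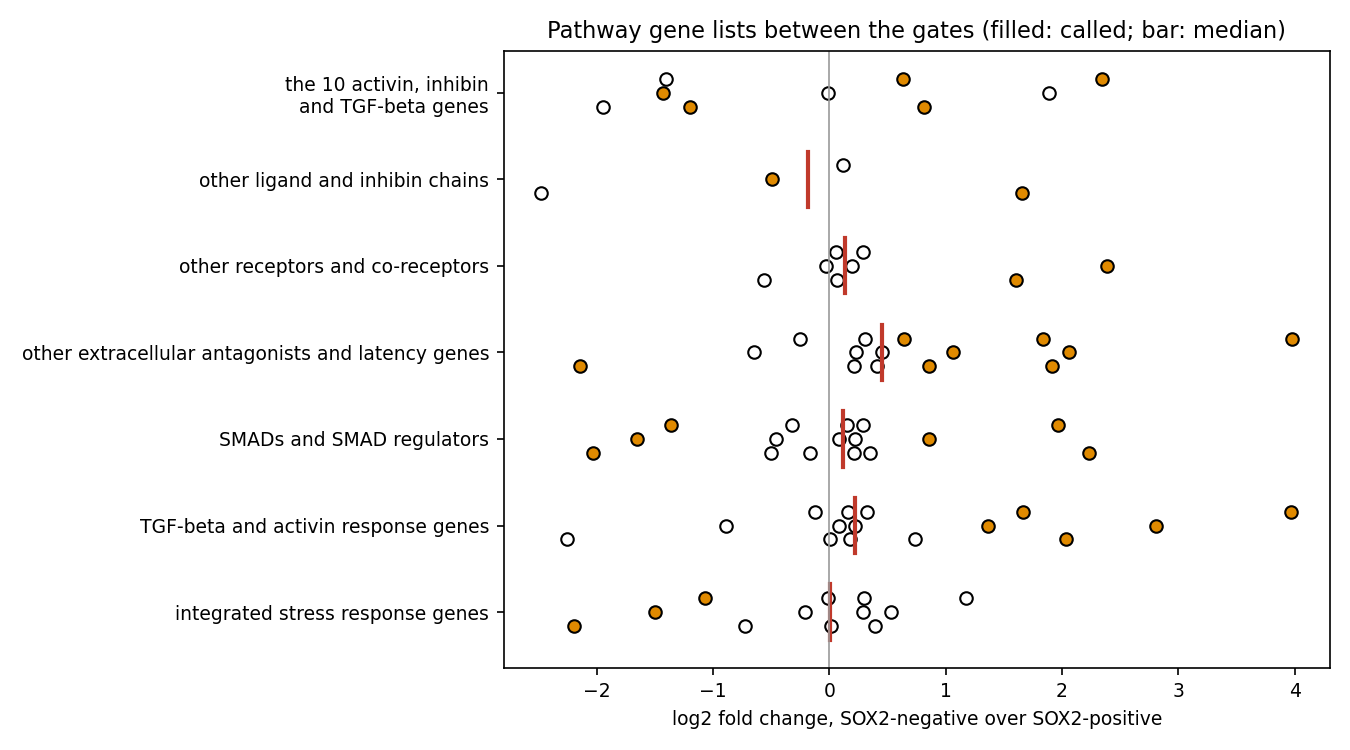
Log2 fold change between the gates (x axis, SOX2-negative over SOX2-positive) of each tested gene in 7 lists (rows), filled where called, with a bar at the median of each list other than the 10 genes. INHBA is not drawn. Each list has genes on both sides of 0, and in the response list the 5 called genes all lie at 1.37 or above.

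Other genes of the pathway were counted from lists chosen with earlier results of these data known, so the counts are not independent of those results. Between the gates 12.9% of all symbols were called higher and 11.1% lower. Of 4 tested other ligand and inhibin chains 1 was higher and 1 lower. The stress-induced ligand GDF15 averaged 7.57 ± 4.24 CPM in SOX2-negative and 2.50 ± 1.04 CPM in SOX2-positive cells (log2 fold change 1.65 ± 0.37, adjusted p = 0.0081, edgeR). GDF11, a ligand of activin type II receptors, averaged 53.0 ± 9.24 and 74.2 ± 12.7 CPM (log2 fold change -0.49 ± 0.16, adjusted p = 0.046, edgeR). Of 8 other receptors and co-receptors 2 were higher and 0 lower, the endothelial type I receptor ACVRL1 (4.64 ± 1.69 and 0.901 ± 0.301 CPM in SOX2-negative and SOX2-positive cells, log2 fold change 2.39 ± 0.39) and the co-receptor TGFBR3 (21.4 ± 6.16 and 7.01 ± 1.30 CPM, log2 fold change 1.61 ± 0.24). The activin receptors ACVR1B, ACVR1C, ACVR2A and ACVR2B were not called, at log2 fold changes between -0.56 and 0.29. Against control ACVRL1 was higher in SOX2-negative cells by 4.09 ± 0.63 at 100 ng/ml and 4.60 ± 0.63 at 1000 ng/ml, and no receptor of the list was called in SOX2-positive cells.

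Of 15 tested extracellular antagonists and latency genes 7 were higher and 1 lower, with a median log2 fold change of 0.45. The matrix protein FBN2 averaged 1830 ± 922 CPM in SOX2-negative and 112.5 ± 43.2 CPM in SOX2-positive cells (log2 fold change 3.98 ± 0.21). BAMBI, a pseudoreceptor that blocks the pathway, averaged 249 ± 33.7 and 62.1 ± 22.7 CPM (2.06 ± 0.20), and the proteoglycan BGN 12.4 ± 7.19 and 3.10 ± 0.169 CPM (1.91 ± 0.29). NRROS, which holds latent TGF-beta on myeloid and microglial cells, was the gene that was lower, at 1.08 ± 0.216 and 4.78 ± 1.03 CPM (-2.15 ± 0.34). Against control, 6 of these 15 were higher in SOX2-negative cells at each dose and 0 lower, beside 11.9% and 8.66% of all symbols at 100 ng/ml and 10.7% and 7.10% at 1000 ng/ml, BGN among them at log2 fold changes of 4.61 ± 0.47 at 100 ng/ml and 3.61 ± 0.46 at 1000 ng/ml. In SOX2-positive cells 1 was higher and 1 lower at 100 ng/ml (BGN 2.24 and FBN2 -1.50) and 3 higher and 0 lower at 1000 ng/ml (BGN 2.16 and BAMBI 1.33 the largest), beside 2.69% and 1.53% of all symbols at the lower dose and 3.63% and 1.97% at the higher.

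Of 16 SMADs and SMAD regulators 3 were higher and 3 lower, with a median of 0.12. SMAD7, the inhibitory SMAD that the pathway induces, averaged 120.0 ± 20.3 CPM in SOX2-negative and 27.2 ± 17.3 CPM in SOX2-positive cells (2.23 ± 0.31), and LDLRAD4, an inhibitor of SMAD phosphorylation, 3.32 ± 1.00 and 0.827 ± 0.305 CPM (1.97 ± 0.42). SMAD3 averaged 10.2 ± 3.17 and 31.4 ± 2.11 CPM (-1.65 ± 0.19), and USP9X, a deubiquitinase of SMAD4, 223 ± 79.6 and 915 ± 357 CPM (-2.03 ± 0.29). Against control TGIF2 was lower in both gates at both doses, by -2.15 ± 0.19 and -2.42 ± 0.19 at 100 and 1000 ng/ml in SOX2-negative cells and -0.98 ± 0.18 and -0.88 ± 0.18 in SOX2-positive cells.

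Of 15 tested TGF-beta and activin response genes 5 were higher and 0 lower between the gates, with a median of 0.22. The basement membrane collagens COL4A1 (926 ± 157 and 132 ± 8.74 CPM in SOX2-negative and SOX2-positive cells, 2.81 ± 0.15) and COL4A2 (771 ± 108 and 189 ± 19.4 CPM, 2.04 ± 0.15) were among them. So were the transcriptional repressors SNAI1 (44.4 ± 21.7 and 14.3 ± 7.14 CPM, 1.67 ± 0.28) and SNAI2 (15.9 ± 14.4 and 0.859 ± 0.572 CPM, 3.97 ± 0.33). SNAI2 is also in the mesenchymal marker list. These genes answer to other signals as well, and 10 of the 15 were not called. Against control, 7 of 15 were higher and 1 lower in SOX2-negative cells at 100 ng/ml and 8 higher and 0 lower at 1000 ng/ml, and in SOX2-positive cells 3 were higher and 0 lower at 100 ng/ml and 4 higher and 1 lower at 1000 ng/ml. Of all symbols 11.9% were higher and 8.66% lower, 10.7% and 7.10%, 2.69% and 1.53%, and 3.63% and 1.97% in these 4 comparisons, in the same order. BHLHE40 was higher in both gates, by 3.07 ± 0.49 and 3.93 ± 0.50 at 100 and 1000 ng/ml in SOX2-negative cells and 3.10 ± 0.49 and 3.25 ± 0.49 in SOX2-positive cells.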

How the data were processed

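Per the labels' protocols, poly-A RNA was reverse transcribed with random hexamers and sequenced paired end. Per the submitters' processing notes, Salmon and GRCh38 were used; the Salmon version, the annotation and the strand setting are not given in the sources used here. The authors deposited estimated counts per gene, unscaled between libraries. These were rounded, rows sharing a symbol were summed (37951 identifiers, 35940 symbols, 1034 with more than 1 identifier), and CPM was computed over all 12 libraries. Intervals and floors cover counting error only.

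Tests used edgeR 4.0.16 (R 4.3.3): TMM scaling, filterByExpr by group (minimum count 10, minimum total 15), 1 mean for each of 7 groups, glmQLFit and glmQLFTest, two-sided, Benjamini-Hochberg adjustment over 17047 symbols and a threshold of 0.05. This leaves 5 residual degrees of freedom and a median prior of 5.61. Alternatives were DESeq2 1.42.0, limma-trend (limma 3.58.1), other scalings, no filter, a block for the repeat, only the compared groups, identifiers apart, no 300 ng/ml libraries, 3 doses averaged for the gate, and each library of a repeated group left out. Coordinates and transcript lengths are from GENCODE 29 on GRCh38.

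Titles gave each library's group and number. Set 2 is described as a biological repetition of every condition except 300 ng/ml, so numbers pair libraries, and p-values measure the spread between repeats of 1 line. As a check, the deviations from group means of libraries with the same number had correlations across genes of -0.06 to 0.223 over 10 pairs of groups, 5 of them over 0.1. Replicates of a group differed beyond sampling noise (chi-square per degree of freedom 22.8 to 142). The genes, the lists and the alternatives were chosen with earlier results of these data known. The text names the 10 genes, up to 4 called genes per list between the gates and up to 2 in other comparisons, and the 3 nearest profiles.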

Additional observations from a re-analysis of the deposited data

Results flagged for a closer look

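Dixon's test was applied to the 4 libraries of a gate at 100 and 1000 ng/ml, and chance gives such a gap in about 1 in 20 groups. INHBE in SOX2-positive cells had its highest library, WNT3A 1000 replicate 1 at 6.13 CPM, far above the other 3 (1.98 to 2.68 CPM, gap over range 0.832). FST in SOX2-negative cells had its lowest library, WNT3A 1000 replicate 2 at 14.8 CPM, far below the other 3 (26.7 to 27.9 CPM, gap over range 0.907). TGFB2 in SOX2-negative cells had its highest library, again WNT3A 1000 replicate 2 at 2.56 CPM, far above the other 3 (0 to 0.120 CPM, gap over range 0.953). These 4 libraries span both doses, and no dose effect was called for the 3 genes.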

How the results depend on the processing

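No member changed the sign of a called difference in any alternative run. TGFB1 and FST stayed called between the gates and in SOX2-negative cells against control at both doses under all alternatives, including each library left out, with gate log2 fold changes of 2.08 to 2.75 and -1.47 to -1.02 on leaving libraries out. On leaving out 1 library each, the count of the 10 genes called was 2 to 5 between the gates, 2 to 4 and 2 to 2 in SOX2-negative cells at 100 and 1000 ng/ml against control, 0 to 1 and 0 to 2 in SOX2-positive cells at those doses, 0 to 3 for the dose in SOX2-negative cells and 0 to 0 for the dose in SOX2-positive cells and for the difference of dose effects. In SOX2-positive cells at 100 ng/ml it was 2 with no filter and 3 with only the compared groups, instead of 1. At 1000 ng/ml it was 2 with no filter, 3 with DESeq2, 2 with the replicate block and 4 with only the compared groups, instead of 1. For the dose in SOX2-negative cells and for the difference of dose effects it was 1 with no filter (TGFB2), instead of 0. The replicate block changed no other call of the 10 genes. The cause was not tested. Over all symbols, the counts called were 2638 to 6835 between the gates, 1410 to 6993 and 1397 to 4675 in SOX2-negative cells, and 85 to 1508 and 128 to 1803 in SOX2-positive cells against control at 100 and 1000 ng/ml on leaving out 1 library, and 0 to 5739 for the dose in SOX2-negative cells and 0 to 3795 for the difference of dose effects. With only the compared groups 1798 were called in SOX2-negative cells at 100 ng/ml against control. In SOX2-positive cells against control no filter gave 1608 and 1799, DESeq2 1375 and 1600 and only the compared groups 2841 and 2188 at 100 and 1000 ng/ml. For the dose in SOX2-negative cells no filter gave 1551, DESeq2 423 and the block 1, for SOX2-positive cells no filter gave 107 and DESeq2 5, and for the difference no filter gave 308 and DESeq2 15. Depth limits INHBA, INHBB, TGFB2 and TGFB3, whose counts per library ran from 0 to 135.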
